A study of Mus musculus with 30 samples.

Results

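The 10 genes followed here are Pdcd1, Cd274, Pdcd1lg2, Ctla4, Lag3, Havcr2, Tigit, Vsir, Cd47 and Sirpa, taken by symbol from the 54532 Ensembl genes of the count tables. They encode immune checkpoint receptors, 2 ligands of Pdcd1, and the Cd47 and Sirpa pair. Each was compared across 3 groups of female C57BL/6 mice of 6 to 8 weeks of age, in platelets and in peripheral blood mononuclear cells (PBMCs). O group mice received 100000 B16F10 cells under the skin, a melanoma line of the same strain, and had palpable tumors on day 14, when blood was drawn. S group mice received 2000 cells and had no tumor that could be seen at autopsy, and C group mice received only the buffer, HBSS. Each of the 30 libraries, 5 per group and tissue, came from a pool of mice. By replicate, the platelet pools of C group had 10, 5, 5, 10 and again 10 mice, those of S group 10 each, and those of O group 3, 4, 5, 3 and 5. For PBMCs every pool of C group had 5 mice, the pools of S group had 5 mice except for replicate 2 with 4, and those of O group were sized as for platelets. By the study's own account most mice given this smaller dose stayed free of tumors through a long follow-up, so a pool of S group may hold mainly such mice, and its level is an average over both kinds. Platelets and PBMCs were parted from the same blood, and the sources used here do not say which libraries share mice. The spread given is that between pools, and the sources used here do not say which experiment each pool came from.

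Checkpoint receptors such as Pdcd1 (PD-1) and Ctla4 sit mainly on T cells and reduce their activation when they meet their ligands, which antigen-presenting cells and many tumor cells carry. Cd47 is found on almost all cells, platelets and red cells included, and binds Sirpa on macrophages and other myeloid cells, which restrains engulfment of the cell that carries it. Blocking antibodies to several of these proteins are used against melanoma, and Cd47 on platelets is known to slow their removal from the blood.

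Between 12259036 and 25360080 reads were counted per platelet library and between 13390983 and 15973449 per PBMC library. Levels are given as CPM (read counts scaled to the size of the library), normalized by the trimmed mean of M values (TMM) over all 30 libraries. A list of 8 platelet markers summed to between 13200 and 75600 CPM in platelet libraries and to between 452 and 5940 CPM in PBMC libraries. White cell markers were present in both tissues. The summed level of 9 T cell markers lay between 235 and 611 CPM in platelets and between 440 and 848 CPM in PBMCs, that of 5 B cell markers between 404 and 1540 CPM and between 894 and 1760 CPM, and that of 7 monocyte and macrophage markers between 977 and 4970 CPM and between 1930 and 4400 CPM. Gene by gene, 8 of 9 T cell, 4 of 5 B cell and 6 of 7 monocyte and macrophage markers were called lower in platelets, and 1, 1 and 0 higher, so the sums of T cell markers are closer between the tissues than most of the genes in them. In platelets of O group the T cell sum was 604, 529, 323, 611 and 235 CPM and the platelet marker sum 52000, 52300, 24600, 75600 and 13200 CPM, high and low in the same libraries. In S group the orders were less alike, at 490, 377, 535, 354 and 462 CPM and 31600, 32000, 48100, 23100 and 20000 CPM. What part of a T cell sum in platelets is T cell RNA was not tested. No marker of these lists was at 0 in all libraries of a group. The share of hemoglobin and other erythroid genes was 4.18% to 41.2% in platelet libraries, with the highest share in replicate 1 of O group, and 3.35% to 27.2% in PBMCs, with the highest share again in replicate 1 of O group. The platelet libraries therefore hold reads of marker genes of other blood cells. Which cells these reads came from, and the part of such cells in the levels below, was not tested. In pooled blood samples, fewer cells of a type and less RNA per cell cannot be told apart.

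All 10 genes are protein coding. In GRCm38, Pdcd1 lies on chromosome 1 from 94038305 to 94052553 and Ctla4 on the same chromosome from 60887000 to 60915832. Cd274 (chromosome 19, 29367455 to 29388095) and Pdcd1lg2 (29410919 to 29471161), the genes of PD-L1 and PD-L2, are neighbors on the same strand with 22823 bases between them. Tigit (43648867 to 43664146) and Cd47 (49800533 to 49915010) are on chromosome 16, Lag3 on chromosome 6 from 124904361 to 124911705, Havcr2 on chromosome 11 from 46454935 to 46481255, Vsir on chromosome 10 from 60346851 to 60372684, and Sirpa on chromosome 2 from 129592835 to 129632228. An antisense gene that is not among the counted genes covers 14.1% of the exon bases of Cd274, and no other gene on either strand shares exon bases with the remaining members. Sirpa has close relatives in the Sirpb family, so the counting of its reads may be affected, which was not tested.

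RefSeq gave promoter sequences (GRCm38.p6, 250 bases before to 50 after the start, written along the coding strand) for 8 of the 10 members, all but Lag3 and Sirpa. The start is that of a RefSeq transcript, which for Cd47 and Ctla4 lies inside the GENCODE gene given above, downstream of its first base. Those of Cd47 and Ctla4 are shown because these genes had the most and the least platelet RNA relative to PBMCs. That of Vsir is shown because it had an unadjusted P under 0.05 between groups in each tissue. These were different comparisons, with opposite directions for S group, and neither passed adjustment. That of Cd274 is shown because its level was alike in both tissues. Capitals mark AGATAA, the letters of a GATA site, and GGAAGT, the letters of an ETS site, on either strand.
Cd47, chr16:49855404-49855703, plus strand: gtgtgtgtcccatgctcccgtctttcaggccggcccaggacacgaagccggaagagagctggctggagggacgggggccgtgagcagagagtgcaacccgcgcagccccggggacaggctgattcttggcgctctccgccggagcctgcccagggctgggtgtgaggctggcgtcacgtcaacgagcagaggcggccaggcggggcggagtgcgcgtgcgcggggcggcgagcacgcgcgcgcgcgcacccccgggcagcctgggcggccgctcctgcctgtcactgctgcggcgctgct
Ctla4, chr1:60908775-60909074, plus strand: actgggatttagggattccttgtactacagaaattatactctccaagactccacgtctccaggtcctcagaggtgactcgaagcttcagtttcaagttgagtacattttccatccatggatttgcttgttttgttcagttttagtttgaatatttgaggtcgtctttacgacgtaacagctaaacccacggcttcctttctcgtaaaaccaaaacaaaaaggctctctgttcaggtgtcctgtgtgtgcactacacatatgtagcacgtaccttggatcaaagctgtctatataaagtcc
Vsir, chr10:60346601-60346900, plus strand: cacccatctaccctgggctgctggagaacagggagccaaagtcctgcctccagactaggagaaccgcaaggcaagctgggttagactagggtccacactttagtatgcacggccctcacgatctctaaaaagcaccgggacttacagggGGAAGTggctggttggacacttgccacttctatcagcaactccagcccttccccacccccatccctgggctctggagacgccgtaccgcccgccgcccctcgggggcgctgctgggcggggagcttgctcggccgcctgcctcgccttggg
Cd274, chr19:29367188-29367487, plus strand: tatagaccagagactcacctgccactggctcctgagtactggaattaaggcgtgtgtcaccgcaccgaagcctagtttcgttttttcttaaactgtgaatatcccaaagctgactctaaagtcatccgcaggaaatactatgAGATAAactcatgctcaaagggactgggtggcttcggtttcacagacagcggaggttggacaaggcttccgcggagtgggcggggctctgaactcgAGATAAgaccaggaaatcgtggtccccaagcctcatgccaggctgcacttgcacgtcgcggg
The Cd47 promoter is the richest in G and C of these, at 74.0% with 35 CpG dinucleotides, against 63.7% and 15 for Vsir, 52.7% and 15 for Cd274, and 42.0% and 8 for Ctla4. The median of all 32851 promoters was 52.7% with 7 CpG dinucleotides. The letters AGATAA occurred 2 times in the Cd274 promoter and 1 time each in those of Pdcd1lg2 and Tigit, and 11.2% of all promoters hold them. GGAAGT occurred 1 time in the Vsir promoter and 2 times in that of Havcr2, and 23.8% of all promoters hold them. No match of AGATAA overlapped one of GGAAGT.

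Per kilobase of exon, Cd47 was the member with the most RNA in platelets, at 53.4 ± 19.6 CPM per kilobase (SD, n = 15), and stood above Cd274, the next member, in 15 of 15 libraries. Cd274 (12.4 ± 4.35), Vsir (8.77 ± 5.12) and Sirpa (6.83 ± 4.24 CPM per kilobase) followed in ranges that overlapped, with Cd274 above Vsir and Vsir above Sirpa in 14 of 15 libraries each. The other members were at or below 1.91 CPM per kilobase on average, and Pdcd1 was lowest at 0.324 ± 0.166, with between 1 and 13 reads in a library. In PBMCs, Vsir (48.8 ± 5.87), Sirpa (45.2 ± 6.89) and Cd47 (37.3 ± 5.12 CPM per kilobase) led in ranges that overlapped, and Cd47 stood above Cd274 (14.0 ± 3.47) in 15 of 15 libraries. Ctla4 came next at 10.9 ± 4.1, then Havcr2 at 4.83 ± 0.767 and Tigit at 3.78 ± 1.23, whereas Lag3 (1.51 ± 0.322), Pdcd1lg2 (1.42 ± 0.409) and Pdcd1 (0.52 ± 0.159 CPM per kilobase) were lowest. Lag3 was above Pdcd1lg2 in only 9 of 15 PBMC libraries, so their order is not settled.

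**Figure D1:**
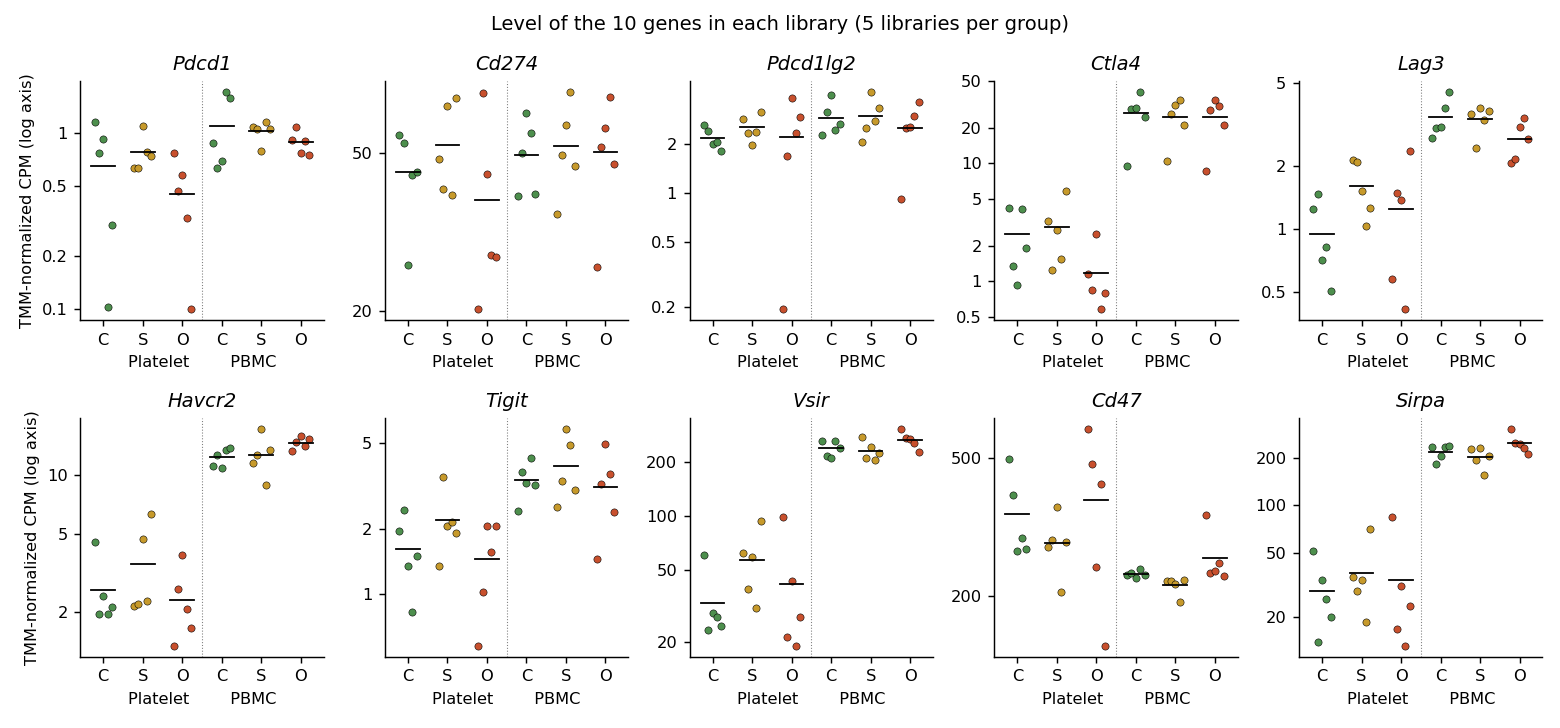
TMM-normalized CPM (log axis) of the 10 genes in each library, for C, S and O group of platelets (left of the dotted line) and PBMCs (right). Points are libraries and horizontal lines are means of 5. Ctla4, Havcr2, Vsir and Sirpa have all platelet libraries below all PBMC libraries, while the tissues overlap for the other members.

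With group as a covariate, 8 of 10 members differed between platelets and PBMCs at an adjusted P under 0.05, where 81.5% of all genes did. Of these, 1 was higher in platelets (36.7% of all genes) and 7 were lower (44.7% of all genes). The fit takes all libraries as independent, although platelets and PBMCs came from the same blood and libraries may share mice. The T cell receptor Ctla4 differed most. Its level lay between 0.58 and 5.79 CPM in platelet libraries (highest in replicate 5 of S group) and between 8.65 and 40.5 CPM in PBMC libraries. The ranges did not overlap, and platelets against PBMCs gave a log2 fold change of -3.59 (SE 0.294, adjusted P = 2.1e-12). Havcr2 (TIM-3), a receptor of T cells and myeloid cells, lay between 1.35 and 6.31 CPM in platelets and between 8.82 and 17.1 CPM in PBMCs. Again the ranges stood apart, with a log2 fold change of -2.22 (SE 0.17). Lag3, which binds MHC class II, had a log2 fold change of -1.30 (SE 0.194), Tigit, a receptor for Pvr and Nectin2, of -0.97 (SE 0.187), and Pdcd1 of -0.72 (SE 0.237, adjusted P = 0.00687). The ranges of these 3 low genes overlapped between the tissues.

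Both ligands of Pdcd1 were close between the tissues. Cd274 was at 20.2 to 70.7 CPM in platelets and 25.8 to 71.2 CPM in PBMCs, and Pdcd1lg2 at 0.193 to 3.8 CPM and 0.918 to 4.15 CPM. The log2 fold changes were -0.17 for Cd274 (SE 0.16, adjusted P = 0.315) and -0.26 for Pdcd1lg2 (SE 0.193, adjusted P = 0.214), close to the median of -0.122 over all genes. Neither passed the test.

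Vsir (VISTA), an inhibitory protein of myeloid and T cells, and Sirpa were far lower in platelets, whereas Cd47 was not. Vsir lay between 18.9 and 98.3 CPM in platelets and between 206 and 307 CPM in PBMCs, a log2 fold change of -2.51 (SE 0.208, adjusted P = 2.7e-12). Sirpa lay between 13.1 and 84.8 CPM in platelets and between 155 and 304 CPM in PBMCs, with a log2 fold change of -2.73 (SE 0.225, adjusted P = 2.4e-12). For both genes the highest platelet library was far below the lowest PBMC library. With Ctla4 and Havcr2, 4 of 10 members had libraries that did not overlap between the tissues, against 26.5% of all genes. Cd47 was at 143 to 608 CPM in platelets and 192 to 341 CPM in PBMCs, with O group holding both the lowest and the highest platelet library. Its log2 fold change was 0.52 with TMM (SE 0.139, adjusted P = 0.00111), but -0.79 (adjusted P = 7.5e-09) when libraries were scaled by their total count only. That scaling moved the median of all genes from -0.122 to -1.34, so the direction for Cd47 depends on the scaling. Cd47 lay above the median gene under both, but scaling shifts all genes about alike, so this is no added support. The other 7 members that passed the test were lower in platelets under both.

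**Figure D2:**
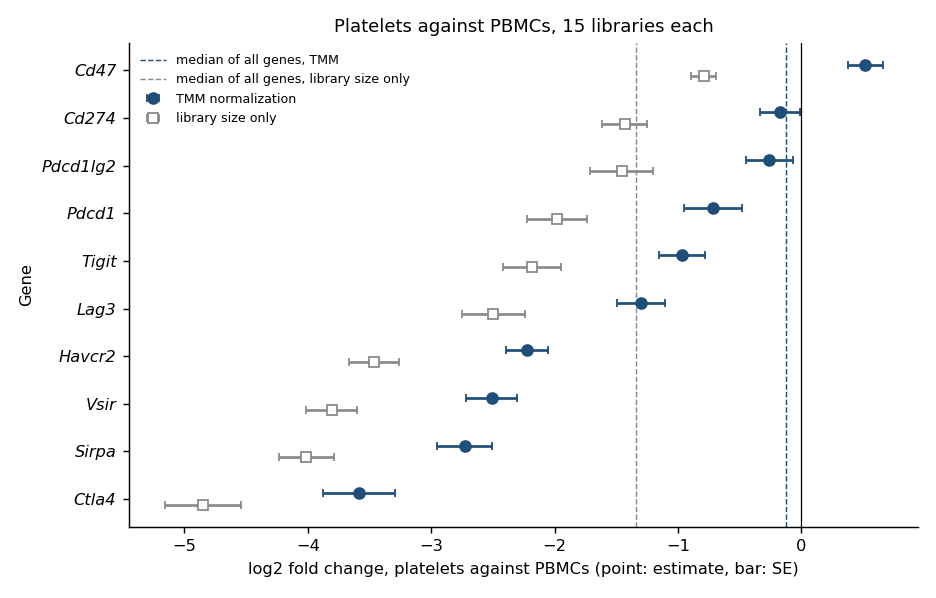
Log2 fold change of platelets against PBMCs for the 10 genes (points) with SE (bars), with TMM normalization (filled) and with library size only (open). Dashed lines are medians of all genes (-0.122 and -1.34). Ctla4 is farthest to the left in both, and Cd47 lies at 0.52 and -0.79.

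Ratios of 2 genes within a library do not depend on how libraries are scaled. The count per kilobase of Cd47 was 3.14 to 25.1 times that of Sirpa in the 15 platelet libraries (median 7.88) and 0.739 to 1.0 times in the 15 PBMC libraries (median 0.842). Against Vsir it was 2.42 to 18.2 times (median 5.93) and 0.641 to 0.888 times (median 0.765). Every platelet library lay above every PBMC library in both ratios. The ratio of Cd47 to Cd274 overlapped between the tissues, at 2.4 to 17.3 and 1.55 to 7.63, as did that of Cd274 to Pdcd1lg2, at 5.07 to 56.8 and 7.02 to 15.2. These ratios were chosen after the levels were seen.

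**Figure D3:**
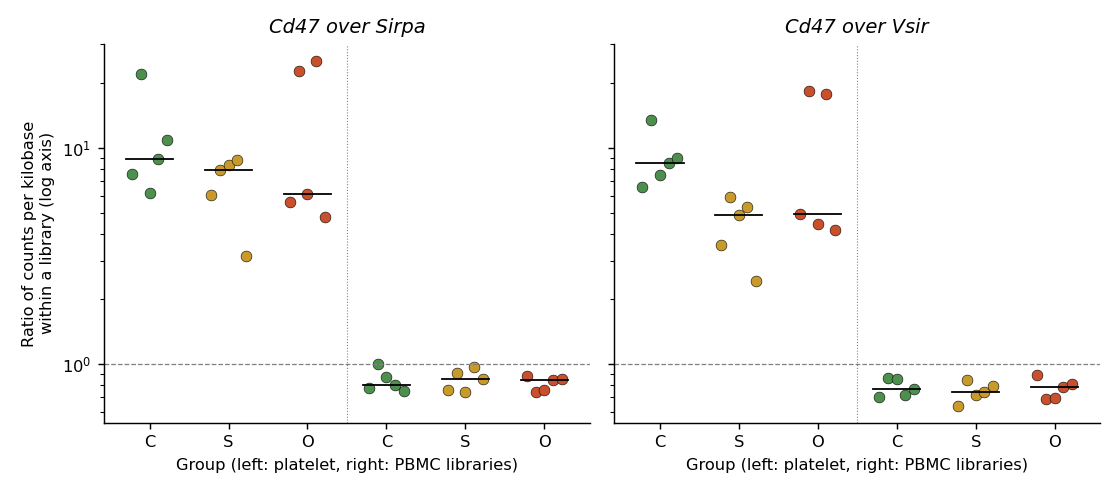
Count per kilobase of Cd47 divided by that of Sirpa (left) or Vsir (right) within each library (log axis), by group and tissue. Points are libraries and lines are medians of 5. All platelet ratios are at or above 2.42 and all PBMC ratios are at or below 1.0.

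In platelets, the comparison of S group with C group asks which genes differ before a tumor can be seen. The filter on low counts kept 9 of 10 members, all but Pdcd1, and 1 of these 9 had an unadjusted P under 0.05, against 6.42% of all genes. This was Vsir, with 60.3, 23.3, 28.8, 27.5 and 24.3 CPM in replicates 1 to 5 of C group and 62.4, 39.1, 59.3, 30.9 and 94.1 CPM in S group. All S group libraries were above 4 of the 5 C group libraries, but replicate 1 of C group overlapped them. Vsir rose by a log2 fold change of 0.85 in S group (SE 0.325, adjusted P = 0.752), and without replicate 5 of S group this was 0.56 and did not pass. An exact permutation test on log2(CPM + 1) gave P = 0.0635. No tested member had groups that stood apart in this comparison, against 1.11% of all genes. Monocytes also carry Vsir, and the monocyte and macrophage markers summed to 2190 to 4970 CPM in C group and 1670 to 3990 CPM in S group. None of these 7 markers was called, and their median log2 fold change was 0.518, in the direction of Vsir. Their part in its difference was not tested.

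Of the other 8 tested members, 7 had a fold change above 0 in S group and none passed the test. Lag3 was the nearest, at 1.25, 1.48, 0.71, 0.825 and 0.504 CPM in C group and 2.14, 2.1, 1.53, 1.04 and 1.26 CPM in S group. The groups overlapped, with a log2 fold change of 0.78 (SE 0.379, adjusted P = 0.769), and each value stands for between 5 and 27 reads. The exact permutation test gave P = 0.0476. In edgeR it passed the threshold without replicate 2 of C group or without replicate 4 of S group. Cd47 was the member with a fold change below 0, at -0.24 (SE 0.211, adjusted P = 0.825). The median of the 9 tested members was 0.414, against -0.015 over all genes.

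Platelets of S group and O group were compared to set inoculation without a visible tumor against established tumors. Of 9 tested members, 1 passed the threshold, where 13.9% of all genes did. This was Ctla4, at 3.25, 1.26, 2.73, 1.56 and 5.79 CPM in S group against 1.16, 0.84, 2.53, 0.58 and 0.804 CPM in O group. S group was higher except for replicate 3 of O group, which overlapped it. The log2 fold change was 1.40 (SE 0.535, adjusted P = 0.31), resting on 12 to 78 reads per library in S group and 6 to 22 in O group. The exact permutation test gave P = 0.0476. Ctla4 fell short of the threshold without replicate 5 of S group (0.98) and, of O group, without replicate 2 (1.27), 4 (1.20) or 5 (1.29). No tested member had groups that stood apart, against 4.04% of all genes. Of T cell markers, 8 of 9 were called higher in S group (median log2 fold change 0.812, against -0.014 over all genes). Their sums overlapped, at 354 to 535 CPM in S group against 235 to 611 CPM in O group, with medians of 462 and 529 CPM. Summed regulatory T cell markers, from cells known for high Ctla4, were 15.2 to 25.7 CPM in S group against 8.1 to 17.4 CPM in O group, and 1 of 3 was called higher. In PBMCs 7 of 9 T cell markers were called higher in S group than in O group, where the log2 fold change of Ctla4 was -0.04. The part of T cell RNA in the difference of Ctla4 was not tested.

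Again 7 of the other 8 members had values above 0 that did not pass the test, from 0.20 for Sirpa to 0.68 for Havcr2, and Cd47 was at -0.35 (SE 0.338, adjusted P = 0.661). Replicate 1 of platelet O group stood apart, with Vsir at 98.3 CPM, Sirpa at 84.8 CPM and Cd47 at 608 CPM, each the highest of all platelet libraries, and Cd274 at 20.2 CPM, the lowest. Its neutrophil markers summed to 4430 CPM, against 482 to 928 CPM in the other O group libraries. Without this library 3 members passed the threshold (Ctla4, Vsir and Sirpa), all higher in S group.

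Pdcd1 had 6 to 12 reads in platelet libraries of S group, 2 to 5 in O group and 1 to 13 in C group. It did not pass the filter in platelets. For S group against O group the exact permutation test gave P = 0.0397, whereas edgeR without the filter (log2 fold change 0.93, SE 0.675, adjusted P = 0.513) and DESeq2 (0.998, SE 0.614, adjusted P = 0.452) did not call it. Against C group the exact permutation test gave P = 0.452, and neither tool called it. The comparison of O group with C group in platelets called 0 of 9 members, against 4.79% of all genes, by edgeR and also by DESeq2, and in no member did the groups stand apart (0.995% of all genes). Ctla4 had the largest difference, with a log2 fold change of -1.13 (SE 0.554, adjusted P = 0.91), and passed the threshold without replicate 2 or 3 of C group or replicate 3 of O group. Cd274 passed it without replicate 2 of O group. The remaining values in this comparison ran from -0.29 for Cd274 to 0.37 for Lag3.

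**Figure D4:**
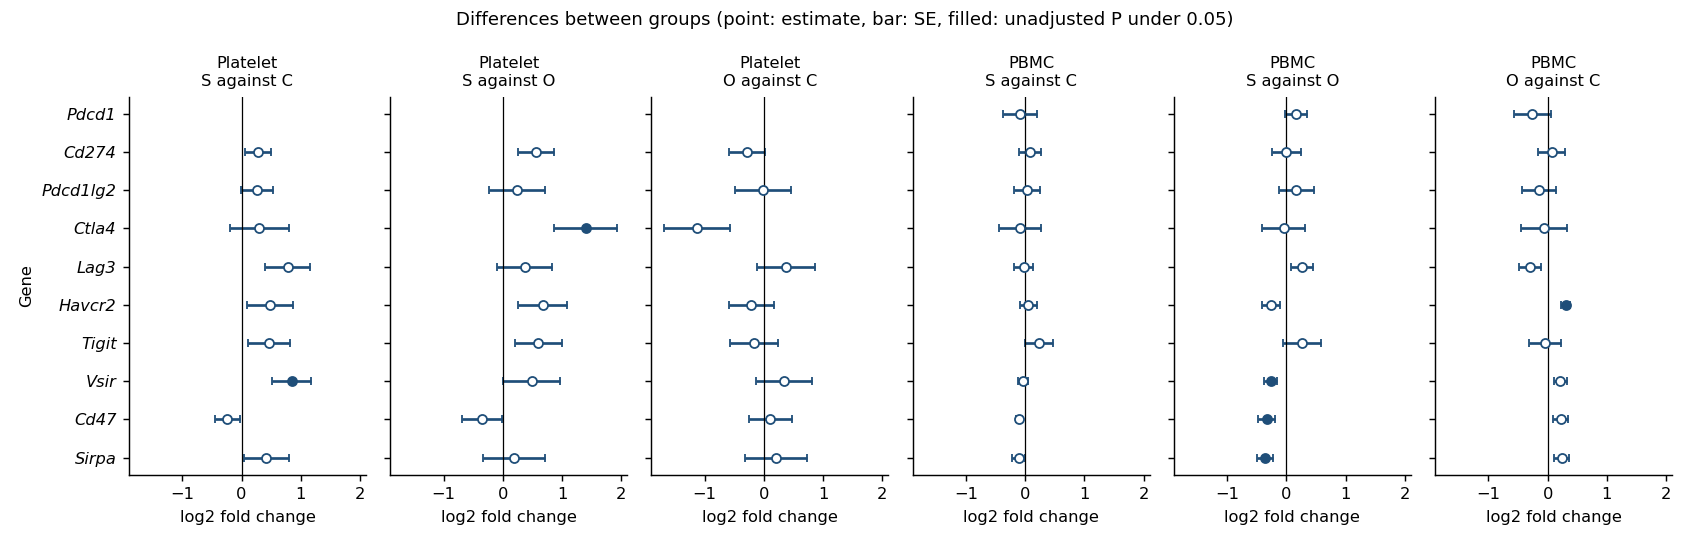
Log2 fold changes (points) with SE (bars) of the 10 genes in the 6 comparisons between groups. Filled points have an unadjusted P under 0.05, and Pdcd1 did not pass the filter in platelets. The platelet estimates of S group lie mostly above 0, and PBMC estimates lie closer to 0 with shorter bars.

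In PBMCs the spread was smaller, and S group was close to C group. Of 10 members, edgeR called 0 in this comparison at an unadjusted P under 0.05, against 2.64% of all genes. DESeq2 called 1, Cd47, against 490 of 36481 genes. Cd47 was at 230, 233, 225, 238 and 229 CPM in C group and at 220, 221, 216, 192 and 222 CPM in S group. Every S group library was below every C group library. No other member had groups that stood apart, in either direction, and 0.76% of all genes did. The margin was narrow and the log2 fold change small, at -0.10 (SE 0.0577, adjusted P = 1 with edgeR and DESeq2). An exact permutation test gave P = 0.00794, the smallest that 5 against 5 libraries allow. The groups overlapped when libraries were scaled by total count only. With the replicate number as a block, used because same-numbered libraries deviated together here, edgeR gave -0.11 and no call. The other 9 members had log2 fold changes from -0.11 for Sirpa to 0.23 for Tigit.

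Against O group, 3 of 10 members were lower in PBMCs of S group, where 12.2% of all genes passed the threshold in either direction. They were Cd47 and Sirpa, the 2 partners of the engulfment signal, and Vsir. Cd47 was at 341, 233, 235, 248 and 228 CPM in O group, each above all S group libraries (2.23% of all genes did not overlap in this comparison). Its log2 fold change was -0.33 (SE 0.138, adjusted P = 0.373) and -0.18 without replicate 1 of O group, in which it was far above the rest. Sirpa was at 227, 192, 229, 155 and 205 CPM in S group and at 304, 246, 243, 231 and 210 CPM in O group. The groups overlapped, with a log2 fold change of -0.36 (SE 0.142, adjusted P = 0.366). Vsir was at 275, 210, 241, 206 and 225 CPM in S group and at 307, 271, 269, 254 and 227 CPM in O group. They overlapped as well, with a log2 fold change of -0.27 (SE 0.116, adjusted P = 0.388). Exact permutation tests gave P = 0.00794 for Cd47, 0.0476 for Sirpa and 0.103 for Vsir. Vsir was not called when no filter on low counts was used (-0.25, adjusted P = 0.549).

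These 3 differences were sensitive to single libraries. Of 10 fits that each left out 1 library, Cd47 passed the threshold in 7 (not without replicate 1, 3 or 4 of S group), Sirpa in 7 (not without replicate 1 of O group or replicate 2 or 4 of S group) and Vsir in 3. Without replicate 4 of S group no member passed. Replicate 1 of PBMC O group, in which all 3 genes were highest, also had the highest erythroid share (27.2%), summed platelet markers of 5940 CPM against 836 to 3690 CPM in the rest of O group, and summed neutrophil markers of 2940 CPM against 171 to 2380 CPM in the rest of O group. Over all libraries of this comparison 7 of 7 erythroid and 2 of 7 neutrophil markers were called lower in S group. With library size only, where 3918 of 14686 genes passed the threshold, none of the 3 was called, and Lag3 was instead (0.62, SE 0.264, adjusted P = 0.184). The 3 fold changes turned to 0.09, 0.05 and 0.13, while the median of all genes moved from -0.001 to 0.357, so their direction depends on the scaling. They stayed below the median gene, but a shift shared by all genes could hardly change that. The part of red cell, platelet or neutrophil RNA in these differences was not tested.

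PBMCs of O group differed from C group in 1 of 10 members, against 11.9% of all genes. Havcr2 was at 11.1, 12.5, 10.8, 13.3 and 13.6 CPM in C group and 13.2, 14.6, 15.7, 13.9 and 15.2 CPM in O group. Only replicate 1 of O group lay within the range of C group, and 2.13% of all genes had groups fully apart. Its log2 fold change was 0.30 (SE 0.0763, adjusted P = 0.337), it passed in each of the 10 fits without 1 library (0.27 to 0.33), and the exact permutation test gave P = 0.0238. DESeq2 gave 0.31 (SE 0.085, adjusted P = 0.0246), the one difference of a member between groups that passed adjustment under any setting, and with RLE scaling the groups stood fully apart. In this comparison 7 of 7 erythroid markers were called higher in O group (median log2 fold change 2.815), and 7 of 9 T cell and 2 of 5 NK cell markers lower. Their part in the difference of Havcr2 was not tested. Scaling by total count only gave Havcr2 -0.07 and no call, where the median of all genes moved to -0.373. It called Lag3 in its place (-0.67, SE 0.264, adjusted P = 0.161), with groups that stood apart. At this scaling 4403 of 14726 genes passed the threshold, and the share of all genes with groups apart was not counted. Cd47 (0.22, SE 0.132), Sirpa (0.24, SE 0.127) and Vsir (0.22, SE 0.111) had values above 0 that did not pass. Without replicate 5 of O group Vsir and Sirpa passed too, and without replicate 4 of O group Lag3 passed, lower in O group.

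Whether a difference between groups was unequal in platelets and PBMCs was tested as an interaction over all 30 libraries. Of 10 members, edgeR called 0 for S group against C group at an unadjusted P under 0.05 (5.38% of all genes), 0 for S group against O group (13.6%) and 0 for O group against C group (6.59%). DESeq2 called 0, 2 (Ctla4 and Havcr2) and 0, against 1336, 2565 and 1407 of 38032 genes. These fits treat the libraries of the tissues as independent although both came from the same blood. With the replicate number as a block within each tissue, which leaves that sharing out as well, edgeR called Vsir for S group against C group (0.88, SE 0.323, adjusted P = 0.641). For S group against O group it called Ctla4 (1.26, SE 0.515, adjusted P = 0.243) and Vsir (0.86, SE 0.324, adjusted P = 0.209). With this block, 1009 and 2612 of 16498 genes passed, in the same order. The members nearest to the threshold were Ctla4 in S group against O group, where the platelet log2 fold change exceeded that of PBMCs by 1.38 (SE 0.682, adjusted P = 0.371), Havcr2 in the same comparison (0.80, SE 0.395) and Vsir in S group against C group (0.84, SE 0.467).

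Ctla4 varied more with the replicate number than with the group in PBMCs. It was at 9.48, 10.6 and 8.65 CPM in replicate 1 of C, S and O group and at 21.2 to 40.5 CPM in all other PBMC libraries. Replicate 1 was lowest in each group, far below the rest. The replicate number accounted for 97.4% of the variance of log2 levels within groups, and 5 of 15398 genes had a higher share. The median gene had 44.8%. The shares of Cd274, 86.4%, and Tigit, 79.9%, were also high, and replicate 1 was the lowest library for both in all 3 groups. T cell markers summed to 716, 848 and 440 CPM in replicate 1 of C, S and O group and to 470 to 748 CPM in the other PBMC libraries, and regulatory T cell markers to 37.0, 42.2 and 26.7 CPM and to 30.2 to 52.4 CPM. In O group these sums were lowest in replicate 1 also, and in S group T cell markers were highest there. In platelets the share for Ctla4 was 24.7%. The pattern was chosen after the values were seen, and the study describes the 5 libraries of a group as independent experiments without saying whether a number marks the same experiment in all groups.

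**Figure D5:**
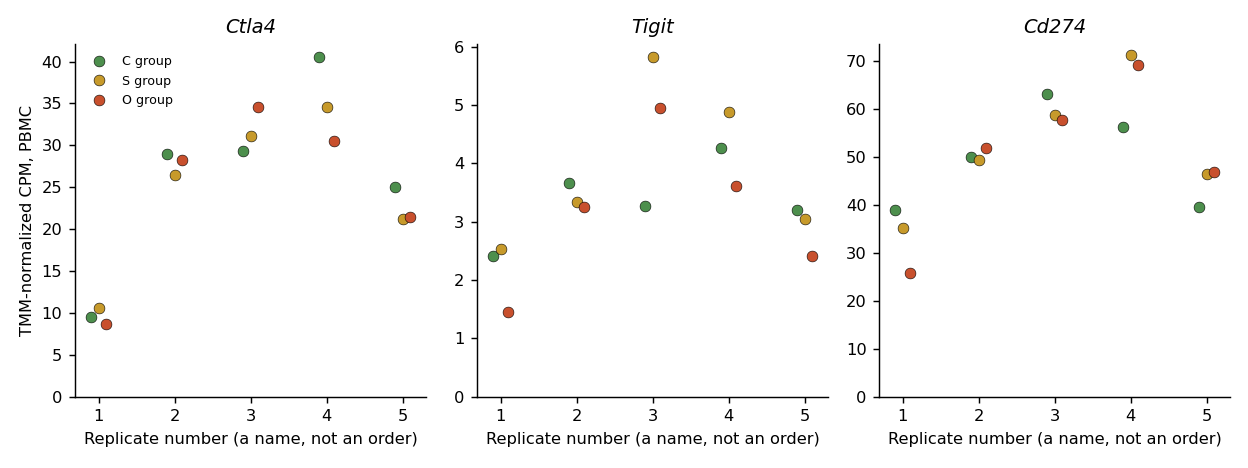
TMM-normalized CPM of Ctla4, Tigit and Cd274 in PBMC libraries by replicate number, with C, S and O group in color. Each point is 1 library. For Ctla4 the 3 libraries numbered 1 lie between 8.65 and 10.6 CPM, and all others at or above 21.2 CPM.

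The genes closest to each member across the 15 libraries of a tissue were found by Spearman's rank correlation of CPM. This is a description over libraries that share tissue, scaling and, in part, reads of marker genes of other blood cells. In platelets, Sirpa was closest to Itgam (rho = 0.975), an integrin of neutrophils and monocytes, and to Selplg (0.968), and Vsir to Selplg (0.971), the P-selectin ligand of white cells, and Nfkbiz (0.968). Ctla4 was closest to 2010016I18Rik (0.968) and Cx3cr1 (0.925), a chemokine receptor of monocytes and lymphocytes, Cd47 to Epha1 (0.975) and Ints13 (0.964), and Cd274 to Pde7b and Otud7b (0.929 each). In PBMCs, Tigit was closest to Ctla4 itself (0.921) and to Traj1 (0.911), a T cell receptor segment, Ctla4 to Rpap2 (0.964) and Vps54 (0.932), and Cd274 to Mgat4a and Nfkbid (0.95 each). Sirpa was closest to Peli2 (0.954) and Aplp2 (0.932), Vsir to Cwc15 (0.964) and Lgals3 (0.954), Havcr2 to Gpr35 (0.871) and Ifi207 (0.861), and Cd47 to Gm8129 (0.904) and Gm5786 (0.886).
The closest genes of the remaining members in platelets were Galnt9 and Taf6 for Lag3 (0.836 each), Il31ra (0.846) and Marc2 (0.839) for Havcr2, Disc1 (0.839) and Ubox5 (0.811) for Tigit, and Kri1 (0.875) and Snx8 (0.868) for Pdcd1lg2. In PBMCs they were Jazf1 (0.807) and Gm20139 (0.743) for Pdcd1, Chrne (0.925) and Tmem37 (0.886) for Lag3, and Gm17193 (0.875) and Fap (0.868) for Pdcd1lg2.

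Lists of related genes gave the surroundings of these members, with 19 ligands, co-receptors and effectors, and 23 other inhibitory receptors and their ligands. Between the tissues, 6 of 16 tested partners were higher in platelets and 8 lower, where 36.7% of all genes were higher and 44.7% lower. Cd226, the activating counterpart of Tigit and a known platelet protein, had a log2 fold change of 4.15 (SE 0.222), Ptpn11, the phosphatase SHP-2 that acts below Pdcd1 and Sirpa, of 2.90 (SE 0.179), and Lrp1, a scavenger receptor for calreticulin, of -3.08 (SE 0.209). Of 22 other inhibitory genes 2 were higher in platelets and 19 lower, led by Cd300a (-2.74), Cd5 (-2.27) and Cd244a (-2.74). The list medians were -0.612 and -1.687, against -0.122 over all genes.

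In platelets of S group against C group, 0 of 16 partners and 7 of 21 other inhibitory genes passed the threshold, all 7 higher, against 6.42% of all genes. Of this list, Siglecg, Fcgr2b and Klrg1 belong to a panel the study selected from genes that differed in S group of these libraries. The counts for S group here, and in the interaction test below, are therefore no independent support. Cd5, a negative regulator of T and B cell receptors, reached 20.4 ± 6.23 CPM (SD, n = 5) in S group against 11.7 ± 2.47 CPM in C group. Siglecg was at 81.8 ± 47.1 and 38.8 ± 13.2 CPM in the same order, and Cd72 at 42.2 ± 9.74 and 30.5 ± 1.55 CPM. The log2 fold changes were 0.84 (SE 0.24), 1.13 (SE 0.348) and 0.51 (SE 0.172), with an adjusted P of 0.746 each. Siglecg and Cd72 restrain the B cell receptor. T and B cell markers moved with these genes. Of 9 T cell markers 4 were called higher in S group (median 0.368), with sums of 354 to 535 CPM against 298 to 571 CPM in C group. Of 5 B cell markers 2 were called higher (median 0.388), with sums of 803 to 1540 CPM against 767 to 921 CPM. Cd5, and Cd28 below, are themselves among the T cell markers counted here. The part of T and B cell RNA was not tested. Against O group, 7 of 22 other inhibitory genes were higher in S group and none lower, against 13.9% of all genes in either direction, with Cd5 at a log2 fold change of 1.53 (SE 0.255, adjusted P = 0.225), Cd72 at 0.98 (SE 0.261) and Siglecg at 1.60 (SE 0.535). Of the partners, 3 of 16 were higher and 1 lower. The costimulatory receptor Icos was at 6.52 ± 3.0 CPM in S group against 2.57 ± 1.07 CPM in O group, Cd28, which competes with Ctla4 for its ligands, at 22.4 ± 6.72 and 14.8 ± 3.22 CPM, and Lgals3, a galectin that binds Lag3, was lower at 65.4 ± 8.72 against 108 ± 17.1 CPM. In the same comparison 8 of 9 T cell markers, 4 of 5 B cell markers and 4 of 7 monocyte and macrophage markers were called higher in S group, and 5 of 6 neutrophil markers lower. Their part in these values was not tested. In platelets of O group against C group, 0 of 16 partners and 3 of 22 other inhibitory genes passed, against 4.79% of all genes. Cd5 (-0.72) and Cd72 (-0.50) were lower in O group, and Siglece (1.91, SE 0.777), a receptor of myeloid cells, was higher. T cell markers (4 of 9) and B cell markers (3 of 5) were called lower as well, and neutrophil markers (3 of 6) higher.

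In PBMCs no gene of either list passed for S group against C group. Against O group, 4 of 16 partners passed, 1 higher and 3 lower in S group, against 12.2% of all genes. Thbs1, thrombospondin, a ligand of Cd47 that platelets and monocytes release, was at 237 ± 26.7 CPM in S group against 549 ± 305 CPM in O group, a log2 fold change of -1.30 (SE 0.333, adjusted P = 0.296). Lrp1 was lower as well (-0.60, SE 0.184), and Cd96, a lymphocyte receptor for Pvr, higher (0.43, SE 0.119). Of 22 other inhibitory genes 3 were higher, among them Klrg1 (0.67, SE 0.172) and Cd5 (0.44, SE 0.139), and 3 lower, among them Cd300a (-0.35, SE 0.111). Klrg1, Cd5 and Cd96 are genes of NK and T cells, and 7 of 9 T cell markers and 5 of 5 NK cell markers were called higher in this comparison. Lower calls were made for 7 of 7 erythroid and 2 of 7 neutrophil markers (neutrophil median log2 fold change -1.315). The 8 platelet markers had a median of -0.945, with 0 called. Their part was not tested. In O group against C group, where 11.9% of all genes passed, 3 of 17 partners were higher, Lrp1 (0.36, SE 0.133) and Thbs1 (0.99, SE 0.437) among them, and 1, Cd96, was lower (-0.37, SE 0.12). Of the other inhibitory genes 2 of 22 were higher and 2 lower. Cd300a (0.30, SE 0.0882) and Cd5 (-0.47, SE 0.142) were among these, and Cd24a, a ligand of Siglecg that developing red cells and neutrophils carry, was at 535 ± 629 CPM in O group and 111 ± 43.4 CPM in C group. The erythroid, T cell and NK cell markers given above for this comparison moved with these genes too. Platelet and neutrophil markers had median log2 fold changes of 0.653 and 1.516 in it, with 0 called in either list. Every adjusted P of these PBMC list genes was 0.296 or above. Both comparisons use the same O group libraries. The interaction test called 2 of 22 other inhibitory genes for S group against C group (5.38% of all genes), Cd5 and Fcgr2b, and for S group against O group (13.6% of all genes) 6 of 22, among them Cd5, Siglecg and Fcgr2b, and 3 of 17 partners, Cd80, Icos and Pvr, each with a more positive difference in platelets. For O group against C group it called none, against 6.59% of all genes. Of T cell markers, 4 of 9 had a more positive difference in platelets for S group against C group. For S group against O group, 4 of 9 T cell (1 more negative), 3 of 5 B cell and 4 of 7 monocyte and macrophage markers did. Of 5 NK cell markers, 1 was more positive and 2 were more negative there. The part of these cells in the calls was not tested.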

How the data were processed

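Platelet and PBMC RNA of C, S and O group mice was sequenced as 5 libraries per group and tissue. The authors removed low-quality reads, aligned the rest with HISAT2 2.0.5 and counted reads per gene with featureCounts 1.5.0-p3. The deposited values are these raw counts, one table per tissue. The submitters' processing notes name mm9, whereas 54409 of the 54532 gene IDs are in GENCODE M21, so positions and exon lengths are those of GRCm38. Samples were grouped by their titles and source names (the cell type tag of platelet samples reads PBMC). The labels give 10 mice for each platelet pool of S group, and the methods give other numbers for some of these pools.

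Groups were compared pairwise with edgeR 4.0.16 (quasi-likelihood F test, filterByExpr, TMM, R 4.3.3), fitted and adjusted by the Benjamini-Hochberg method over all genes. A member was called at an unadjusted P under 0.05, the study's threshold, and between tissues at an adjusted P under 0.05 (30 libraries, group as covariate). Differences of response were interaction terms. The standard error is the log2 fold change divided by the square root of F. The exact permutation test used 252 arrangements. All tests are two-sided. Fold changes come from TMM factors of the fitted libraries, and levels from factors over all 30. Markers and lists were summed or counted without a test.

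The alternatives were DESeq2 1.42.0, RLE size factors, no filter on low counts (all genes with at least 1 count), the replicate number as a block, a pseudocount of 0.1, each library left out in turn, and, chosen after the data were seen, library size only and ratios within libraries. Deviations of same-numbered PBMC libraries of S and C group correlated by over 0.1 in every pair (r from 0.14 to 0.448), so the numbers were taken to pair them, from the data and not from the labels. No other pair of groups had all correlations over 0.1. The scripts were tested on simulated data. Named genes were the 10 members, up to 3 genes per list and comparison with the smallest P under 0.05, and the 2 closest genes per member. The members and lists were chosen with earlier results of these data known.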

Additional observations from a re-analysis of the deposited data

Results flagged for a closer look

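In 6 of the 60 sets of 5 libraries (10 genes in 6 groups), 1 library lay apart from the other 4, with a gap above Dixon's 95% limit. Chance gives about 1 in 20 such sets. The values are these. Cd47 was at 341 CPM in replicate 1 of PBMC O group, against 228 to 248 CPM in the other libraries, and at 192 CPM in replicate 4 of PBMC S group, against 216 to 222 CPM. Vsir was at 60.3 CPM in replicate 1 of platelet C group (others 23.3 to 28.8 CPM), and Havcr2 in the same library at 4.55 CPM (others 1.96 to 2.41 CPM). Sirpa was at 84.8 CPM in replicate 1 of platelet O group (others 13.1 to 31.2 CPM). Pdcd1 was at 0.795 CPM in replicate 3 of PBMC S group (others 1.06 to 1.15 CPM).
Replicate 1 of platelet C group also had the most monocyte and macrophage markers of its tissue, 4970 CPM, together with the highest sums of platelet markers (59100 CPM, others 21800 to 46000) and T cell markers (571 CPM, others 298 to 447) in its group, and replicate 4 of PBMC S group had the fewest of all PBMC libraries, 1930 CPM. Their part in these values was not tested.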

How the results depend on the processing

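Between tissues, 8 members passed under DESeq2, RLE factors, no filter and the replicate block, 10 with library size only, and 7 to 8 without 1 library. The pairwise calls were less stable. Without 1 library, the number called was 0 to 2 for platelet S group against C group, 0 to 3 against O group and 0 to 1 for O group against C group, and in PBMCs 0 to 0, 0 to 3 and 1 to 3. For the interactions it was 0 to 1, 0 to 4 and 0 to 1. The count of 3 for platelet S group against O group came without replicate 1 of O group.

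For the interaction of S group against O group, 2 members passed with RLE factors, 3 without a filter, 2 with the replicate block and 2 with DESeq2. In the same order, 2014 of 16498, 3127 of 38098, 2612 of 16498 and 2565 of 38032 genes passed. For S group against C group 1 (Vsir) passed without a filter (2156 of 38098 genes), with the replicate block (1009 of 16498) and with library size only (1122 of 16498). For O group against C group 1 (Lag3) passed with library size only (1949 of 16498 genes). The replicate block pairs libraries by number although only PBMC S and C group met the rule. It gave 2 calls in platelet S group against O group (Cd274 and Ctla4), where 1545 of 13306 genes passed. It changed no other pairwise count by over 1.5 times. In PBMC S and C group, and in PBMC S and O group, each of 5 libraries correlated best with its own number. DESeq2 called 1 member (Cd47) in PBMC S group against C group, where 490 of 36481 genes passed. Library size only called 3, 2 and 1 members in platelet S group against C group, platelet S group against O group and PBMC S group against O group. In the same order, 1399 of 13268, 1043 of 13306 and 3918 of 14686 genes passed. In PBMCs the call was Lag3, in place of Cd47, Sirpa and Vsir against O group and of Havcr2 in O group against C group. Without a filter Vsir was not called in PBMC S group against O group.

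With library size only, in PBMC S group against O group, fold changes turned to 0.33 (Cd274), 0.26 (Ctla4), 0.091 (Havcr2), 0.13 (Vsir), 0.086 (Cd47) and 0.047 (Sirpa), in O group against C group to -0.27 (Cd274), -0.070 (Havcr2), -0.20 (Vsir), -0.22 (Cd47) and -0.19 (Sirpa), in platelet O group against C group to 0.28 (Pdcd1lg2) and 0.10 (Tigit), and between tissues to -0.79 (Cd47). It moved the median of all genes to 0.357, -0.373, 0.119 and -1.34. Small values also crossed 0 elsewhere. In platelet O group against C group Pdcd1lg2 was 0.0037 with RLE factors and 0.0088 with DESeq2, and with the block Cd47 was -0.036 and Sirpa -0.017. Cd274 in PBMC S group against O group was 0.014 without a filter and 0.019 with the block. For Pdcd1 in PBMC S group against C group the sign of the difference turned with a pseudocount of 0.1 (permutation P = 0.929).

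Leaving out 1 library turned the sign of fold changes that had not passed the test. The ranges were, in platelets, -0.15 to 0.56 (Ctla4) for S group against C group, -0.023 to 0.53 (Pdcd1lg2) and -0.19 to 0.90 (Sirpa) for S group against O group, and -0.31 to 0.24 (Pdcd1lg2), -0.014 to 0.60 (Lag3), -0.50 to 0.10 (Havcr2), -0.32 to 0.040 (Tigit), -0.31 to 0.71 (Vsir), -0.17 to 0.32 (Cd47) and -0.54 to 0.53 (Sirpa) for O group against C group. In PBMCs they were -0.23 to 0.13 (Pdcd1), -0.063 to 0.19 (Cd274), -0.12 to 0.18 (Pdcd1lg2), -0.31 to 0.10 (Ctla4), -0.096 to 0.081 (Lag3), -0.084 to 0.15 (Havcr2) and -0.11 to 0.0018 (Vsir) for S group against C group, -0.15 to 0.15 (Cd274), -0.016 to 0.33 (Pdcd1lg2) and -0.25 to 0.15 (Ctla4) for S group against O group, and -0.089 to 0.22 (Cd274), -0.31 to 0.040 (Pdcd1lg2), -0.28 to 0.14 (Ctla4) and -0.26 to 0.11 (Tigit) for O group against C group. Between tissues Cd274 was -0.26 to 0.034. The cause was not tested. With 1 to 13 reads per library, differences of Pdcd1 in platelets were near the limit of this depth.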

Other observations

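Within platelet libraries, the count per kilobase of Cd47 relative to that of Vsir separated S group from C group. It was 6.57, 13.4, 7.46, 8.5 and 8.98 in C group and 3.53, 5.93, 4.86, 5.3 and 2.42 in S group, so that every S group library lay below every C group library whatever the scaling. In O group it was 4.94, 18.2, 4.43, 17.7 and 4.17, which overlapped both. The ratio of Cd47 to Sirpa did not separate the groups, at 6.15 to 21.9 in C group and 3.14 to 8.74 in S group. The first ratio joins the only member called in this comparison, which was higher in S group, with the only tested member that was lower there. How many pairs of genes separate these groups was not counted. These ratios were chosen after the values were seen and carry no test.

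In platelets, NK cell markers summed to 74.2 to 158 CPM in S group, 65.7 to 114 CPM in C group and 37.8 to 101 CPM in O group, dendritic cell markers to 24.4 to 45.7, 25.8 to 53.9 and 14.8 to 49.8 CPM, and neutrophil markers to 215 to 432, 204 to 949 and 482 to 4430 CPM, so that neutrophil markers of S group were below all of O group. In PBMCs, NK cell markers summed to 183 to 224 CPM in S group, 137 to 223 CPM in C group and 83.9 to 164 CPM in O group, so that S group was above all of O group. There, dendritic cell markers summed to 25.4 to 32.9, 22.9 to 48.2 and 18.1 to 34.9 CPM, and neutrophil markers to 132 to 1610, 138 to 1120 and 171 to 2940 CPM. The 5 melanocyte markers summed to at most 7.57 CPM in platelets and to 8.42 to 25.9 CPM in PBMCs. Only 1 of the 5 passed the filter in each pairwise comparison, so these sums rest on few genes. The markers at 0 in all libraries of a group were Mlana and Tyr in platelets of S group, Tyrp1 in platelets of O group, Mlana and Tyrp1 in PBMCs of C group, Mlana in PBMCs of S group, and Tyr, Dct and Tyrp1 in PBMCs of O group. Replicate 3 of PBMC S group had counts on 32900 genes, where the PBMC median was 22253, and its Tigit (5.83 CPM) and Havcr2 (17.1 CPM) were the highest of all PBMC libraries.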
